A study of Rattus norvegicus with 16 samples.

Results

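rno-miR-103 and rno-miR-107 are a pair of closely related rat microRNAs whose genes lie inside Pank genes, which encode pantothenate kinases, the enzymes of the first step of coenzyme A synthesis. They are 2 of the 677 miRNAs on the array and were selected on their names, as the pair linked to insulin sensitivity. The choice was made with it known that miR-103 was lower in old EDL, so the old minus young EDL values are given as a description with no test. Whole hindlimb muscles from male Fischer 344 rats were measured in 4 groups on 1 single-colour Agilent rat miRNA array per sample. These were old soleus, young soleus, old EDL (extensor digitorum longus) and young EDL, with 4 arrays each and 16 in all. Old rats were 25 to 28 months of age and young rats 6 to 7 months, and the rats carried no other treatment or allele in the labels. Soleus is a mainly slow-fibre postural muscle and EDL a mainly fast-fibre one. The labels give replicate numbers 1 to 4 for old and 7 to 10 for young samples, and do not say whether the soleus and EDL samples of a number came from the same rat. They also do not say that the samples of a group were separate rats, so the p-values measure the spread between these samples.

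A miRNA is a short RNA that guides Argonaute to messenger RNAs paired to its seed, the bases near its 5′ end, and lowers their output. miR-103 and miR-107 are processed from hairpins in introns of the Pank genes of mammals and belong to the group of miRNAs named after miR-15 and miR-107, which shares a stretch at the 5′ end. In mouse liver and fat, miR-103 and miR-107 are known to lower insulin sensitivity through caveolin-1, a scaffold of the insulin receptor's membrane domain. They are also known to target Dicer, the enzyme that cuts miRNAs from their hairpins.

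The mature sequences are shown because the members differ by 1 base. They are from RefSeq on build GRCr8, with the seed (bases 2 to 8) in capitals. The miR-16 sequence, the best known of the group, is given for comparison.
miR-103: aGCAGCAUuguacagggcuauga
miR-107: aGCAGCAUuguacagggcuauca
miR-16: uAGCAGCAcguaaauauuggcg
The members have the same seed, GCAGCAU, and are identical at 22 of 23 bases. The difference is G22C, counted from 1 at the 5′ end with the miR-103 base first. The stretch AGCAGCA covers bases 1 to 7 of both members. It covers bases 2 to 8 of miR-15b, miR-16, miR-195, miR-322 and miR-497, so their seed is shifted by 1 base from that of the members. The probe sequences were not used here, and how far the probe of a member also binds the other member was not tested. The separate values of the pair and their difference on an array both carry this limit.

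The hairpins are shown because they place the pair in 3 host genes and show why the array cannot assign miR-103 to a locus. The mature strand is in capitals.
Mir103a1: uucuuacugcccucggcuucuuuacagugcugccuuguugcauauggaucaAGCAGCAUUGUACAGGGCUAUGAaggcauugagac
Mir103a2: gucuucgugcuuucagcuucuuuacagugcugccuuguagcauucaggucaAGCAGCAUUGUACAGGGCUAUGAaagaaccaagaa
Mir107: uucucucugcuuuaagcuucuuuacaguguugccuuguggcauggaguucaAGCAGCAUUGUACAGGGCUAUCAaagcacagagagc
On GRCr8, Mir103a1 lies at chr10:20748474-20748559 on the plus strand, within the annotated span of Pank3. Mir103a2 lies at chr3:138963227-138963312 on the plus strand, within Pank2. Mir107 lies at chr1:241750418-241750504 on the minus strand, within Pank1. The mature miR-103 sequence is present in 2 hairpins and the miR-107 sequence in 1. A miR-103 signal therefore cannot be assigned to one of these loci, and the Pank transcripts themselves were not measured. The opposite (passenger) strands, miR-103-1*, miR-103-2* and miR-107*, had 2, 2 and 3 probes, and each of these was well above background on 0 of the 16 arrays.

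Each member had 2 probes with 10 spots each, or 640 member spots over all arrays, of which 21 carried an outlier flag and were left out. The brighter probe of each, used below, was well above background on 16 of 16 arrays. The dimmer probe was well above background on all 8 EDL arrays for both members. On soleus arrays the dimmer miR-103 probe reached this on 1 of 4 old and 3 of 4 young arrays, and the dimmer miR-107 probe on 3 of 4 old and 3 of 4 young arrays. Between the spots of the brighter probe, the coefficient of variation on single arrays ran from 6.18 to 21.9% in soleus and from 6.18 to 9.79% in EDL for miR-103. For miR-107 it reached 13.8% in soleus and 12.3% in EDL. The spots of an array share its RNA, so they are not replicates of a group.

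The arrays differed in brightness before any scaling. The 75th percentile of the 95 probes well above background on all 16 arrays ran from 290 to 681 in soleus and from 589 to 1864 in EDL. Between 59 and 86 miRNAs counted as well above background on a soleus array, and 83 or more on an EDL array. Each array was divided by its percentile, and levels below are signal relative to it. Young soleus 7 and 8 had the lowest hybridisation spike-in signal. On both, and on all 4 old soleus arrays, the labelling spike-in was outside the range of the scanner software. Old soleus, young soleus and EDL arrays lay on separate slides (3 in all), so slide and group cannot be told apart for the soleus age comparison and for both muscle comparisons. Old and young EDL arrays shared a slide but lay in different columns. Striated muscle miRNAs (miR-1, miR-133a, miR-133b, miR-206 and miR-499) summed to 54.4 to 64.4 times the percentile in old soleus, 68.1 to 79.8 in young soleus, 54.0 to 60.8 in old EDL and 46.7 to 59.8 in young EDL. The neural miRNAs and the liver miRNA miR-122 were well above background on no array.

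Across the 4 groups, miR-103 was highest in young EDL, at a level that no array of another group reached. Its relative signal was 0.0949, 0.0967, 0.103 and 0.118 in old soleus 1 to 4. Young soleus 7 to 10 had 0.106, 0.123, 0.122 and 0.125. Old EDL 1 to 4 had 0.116, 0.112, 0.120 and 0.118, and young EDL 7 to 10 had 0.135, 0.145, 0.131 and 0.150. Old soleus 4 stood at the level of old EDL, and young soleus 7 stood below the other young soleus arrays. The log2 means were -3.28 ± 0.14 in old soleus, -3.08 ± 0.11 in young soleus, -3.10 ± 0.04 in old EDL and -2.84 ± 0.09 in young EDL (SD, n = 4 each). The means thus stood highest in young EDL and then in young soleus, old EDL and old soleus. Young soleus and old EDL overlapped, as did old EDL and old soleus. Fewer cells holding a miRNA and less of it per cell cannot be told apart in whole muscle.

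miR-107 varied less between groups. Its relative signal was 0.153, 0.158, 0.150 and 0.160 in old soleus 1 to 4, and 0.164, 0.169, 0.177 and 0.180 in young soleus 7 to 10. Old EDL 1 to 4 had 0.161, 0.173, 0.163 and 0.167, and young EDL 7 to 10 had 0.164, 0.176, 0.147 and 0.188. Every old soleus array was below every young soleus array and every old EDL array, while young EDL spanned all the other groups. The log2 means were -2.69 ± 0.04 in old soleus, -2.54 ± 0.06 in young soleus, -2.59 ± 0.05 in old EDL and -2.57 ± 0.15 in young EDL (SD, n = 4 each). By mean the order from the top was young soleus, young EDL, old EDL and old soleus, and among neighbours in it only old EDL and old soleus did not overlap. These 2 groups nearly touched, with old soleus 4 at 0.1601 and old EDL 1 at 0.1607.

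**Figure D1:**
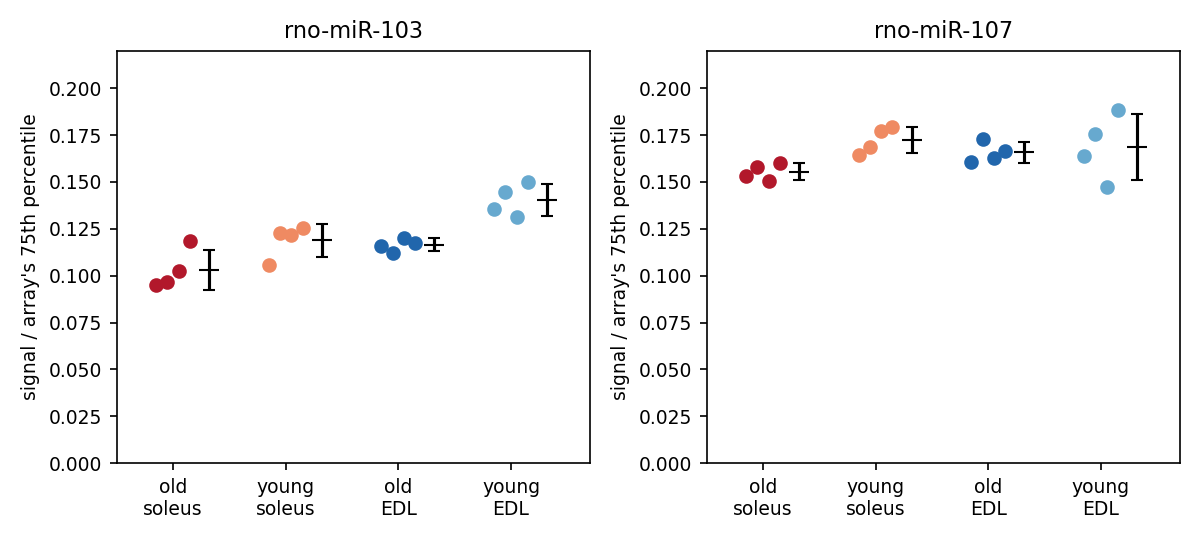
Signal of the brighter probe of miR-103 (left) and miR-107 (right) divided by the array's 75th percentile, 1 point per array in replicate order, with the group mean and SD (n = 4) beside the points in black. For miR-103 the 4 young EDL arrays lie between 0.131 and 0.150, above all others. For miR-107 the old soleus arrays lie between 0.150 and 0.160, below the young soleus arrays and, narrowly, the old EDL arrays.

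Between the muscles of young rats, miR-103 was lower in soleus, while miR-107 did not pass the test. The miR-103 difference, soleus minus EDL, was -0.24 on the log2 scale (SE 0.07, limma adjusted p = 0.0160), or 0.847-fold with a 95% interval of 0.760 to 0.943. The groups did not overlap. This adjusted p, like the others given for single miRNAs, is from a limma model of all 16 arrays with Benjamini-Hochberg adjustment over the 114 miRNAs that were well above background on 4 or more arrays. In that comparison 43% of the 114 were called at an adjusted p under 0.05 and 35.1% had groups that did not overlap, so a call was common. For miR-107 the difference was 0.04 (SE 0.06, limma adjusted p = 0.733), with a 95% interval of 0.936 to 1.12-fold. These values use the same young EDL arrays as the age contrast known when the pair was chosen. The miR-103 call was lost without young soleus 7 and 8 (-0.18, limma adjusted p = 0.114), and also without young EDL 10 (-0.21, limma adjusted p = 0.0548). Scaled to the labelling spike-ins, miR-103 turned to 0.37 and miR-107 to 0.64, with the median of all tested miRNAs moved to 0.33.

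Between the muscles of old rats, miR-103 was again lower in soleus, at the edge of the threshold. The difference was -0.18 (SE 0.07, limma adjusted p = 0.0497), or 0.883-fold with a 95% interval of 0.793 to 0.983, and the groups overlapped through old soleus 4. Here 53.5% of the 114 miRNAs were called, 52.6% had groups that did not overlap, and the median over all tested was -0.05. The miR-107 difference was -0.09 (SE 0.06, limma adjusted p = 0.227), with an interval of 0.857 to 1.03-fold. Every old soleus array was nevertheless below every old EDL array, though old soleus 4 and old EDL 1 nearly touched. The values of both members use the same old EDL arrays as the age contrast known when the pair was chosen. The miR-103 call was kept in 4 of 16 fits that left out 1 array, those without young EDL 9, young EDL 10, young soleus 7 or old soleus 4 (-0.25, limma adjusted p = 0.00495, without old soleus 4). Scaled to the labelling spike-ins, the values turned to 0.18 for miR-103 and 0.26 for miR-107.

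Markers of other cells moved with the muscle comparisons, and their part in the miR-103 difference was not tested. The smooth muscle miRNAs miR-143 and miR-145 were both lower in soleus at both ages. Their summed signal was 0.410 to 0.528 in old soleus against 0.641 to 0.849 in old EDL, and 0.473 to 0.597 in young soleus against 0.621 to 0.836 in young EDL. miR-145 was well above background on 12 of 16 arrays. Its log2 means of -4.37 in old and -4.29 in young soleus were near the floor set for low signals (-4.88). Of 6 fibroblast miRNAs, 2 were lower in old and 4 in young soleus, beside 53.5% and 43% of all tested miRNAs called in either direction. Their sums were 0.561 to 0.838 in old soleus against 0.670 to 1.09 in old EDL, and 0.401 to 0.496 in young soleus against 0.571 to 0.893 in young EDL. Of those called, miR-140* in old soleus (log2 mean -4.33) and miR-199a-5p (-4.51) and miR-214 (-4.30) in young soleus were also near the floor. Of 2 tested leukocyte miRNAs, miR-150 was lower in soleus at both ages (-0.73 in old and -0.31 in young rats) and miR-223 higher (0.96 and 0.95). Their list, 4 on the array, summed to 0.268 to 0.355 in old soleus against 0.297 to 0.354 in old EDL, and to 0.260 to 0.336 in young soleus against 0.261 to 0.290 in young EDL. The endothelial miR-126 was lower in old soleus (-0.48, limma adjusted p = 0.00654), and its young muscle difference was -0.33 (limma adjusted p = 0.0532). Of the striated muscle miRNAs, miR-1 and miR-133a were lower in soleus at both ages, from -0.77 to -0.49, and miR-206 and miR-499 higher. The muscle miRNA miR-133b differed by -0.19 in old and 0.07 in young rats and was called at neither age.

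In soleus, neither member passed the test of old against young rats, and both mean differences were below 0. miR-103 differed by -0.21 (SE 0.07, limma adjusted p = 0.102), or 0.866-fold with a 95% interval of 0.778 to 0.965, and the groups overlapped. miR-107 differed by -0.15 (SE 0.06, limma adjusted p = 0.125), or 0.902-fold with an interval of 0.824 to 0.988, and the groups did not overlap. In the dimmer probes, which were not well above background on every soleus array, old minus young soleus was -0.21 for miR-103 and -0.02 for miR-107. Of the 114 tested miRNAs, 3.51% were called and 21.9% had groups that did not overlap. miR-103 passed without young soleus 7 (-0.26, limma adjusted p = 0.0254), without old soleus 4 (-0.28, limma adjusted p = 0.0445) and without young soleus 7 and 8 together (-0.27, limma adjusted p = 0.0490). With scaling to the labelling spike-ins both passed, at -0.51 for miR-103 and -0.45 for miR-107, with the median of all tested miRNAs at -0.19. Of the 6 fibroblast miRNAs 1 was higher in old soleus. Their sums were 0.561 to 0.838 in old soleus against 0.401 to 0.496 in young soleus. The 5 tested striated muscle miRNAs all had differences below 0, from -0.43 to -0.21 with a median of -0.28, and none was called. The part of either list in the members' values was not tested.

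In EDL, the members parted with age. miR-103 was 0.831-fold in old relative to young EDL (log2 -0.27, SE 0.07), with every old array below every young one, as in 12.3% of the 114 miRNAs, and 4 of the 114 had a lower difference. miR-107 was 0.986-fold (log2 -0.02, SE 0.06) with overlapping groups, and its difference turned to 0.03 without young EDL 10. The age effect in soleus minus that in EDL was 0.06 (SE 0.10) for miR-103, which turned to -0.01 without old soleus 4, and -0.13 (SE 0.09) for miR-107. No test is given for these values, since the EDL contrast was known when the pair was chosen. In the same contrast the fibroblast miRNAs miR-21 and miR-140* differed by 1.004 and 0.62 and the muscle miRNA miR-206 by 1.20. The fibroblast miRNAs miR-199a-3p, miR-214 and miR-199a-5p differed by -0.26, -0.17 and -0.14, and miR-140 was at the floor set for low signals. The median of these 6 fibroblast miRNAs was -0.07. The muscle miRNAs miR-1, miR-133a, miR-133b and miR-499 differed by 0.0041, -0.06, 0.04 and -0.01, with miR-499 near the floor in EDL. The summed fibroblast signal was 0.670 to 1.09 in old EDL against 0.571 to 0.893 in young EDL. The erythroid miR-451 differed by 1.19 and was at the floor on 11 of 16 arrays. Its list, 2 on the array, summed to 0.0227 to 0.246 in old EDL against 0.0176 to 0.0356 in young EDL. The leukocyte miRNAs miR-150 and miR-223 differed by 0.23 and 0.37. The part of these lists in the miR-103 value was not tested. In the dimmer probes, old minus young EDL was -0.29 for miR-103 and -0.0040 for miR-107. These probes read the same RNA on the same arrays, so their values are not a separate observation.

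**Figure D2:**
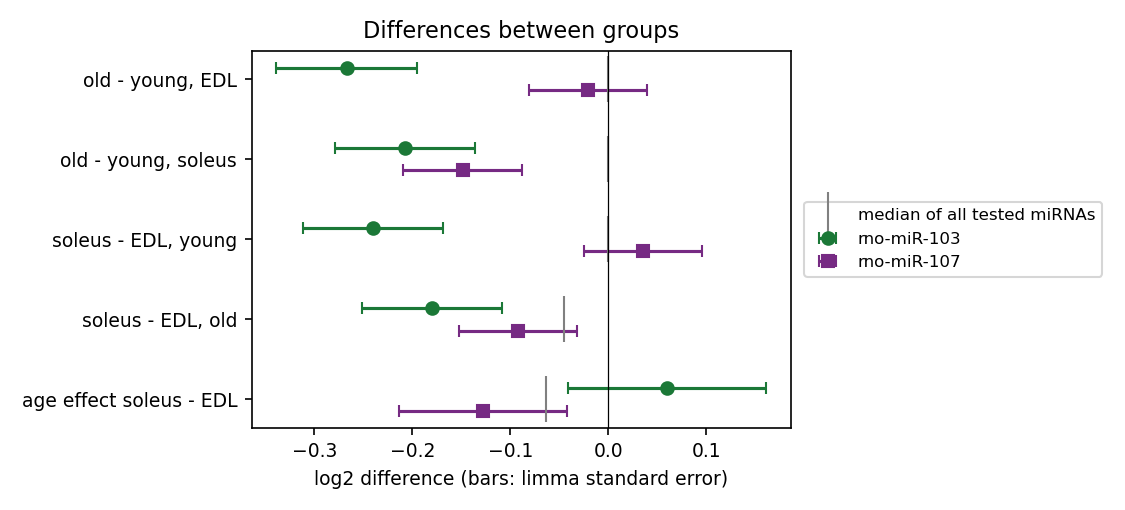
Log2 differences of miR-103 (green circles) and miR-107 (purple squares) between groups, with bars of 1 limma standard error and a grey tick at the median of all 114 tested miRNAs. miR-103 lies between -0.27 and -0.18 in the 4 comparisons of 2 groups, and miR-107 between -0.15 and 0.04. The lowest row, the age effect in soleus minus that in EDL, has 0.06 for miR-103 and -0.13 for miR-107.

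**Figure D3:**
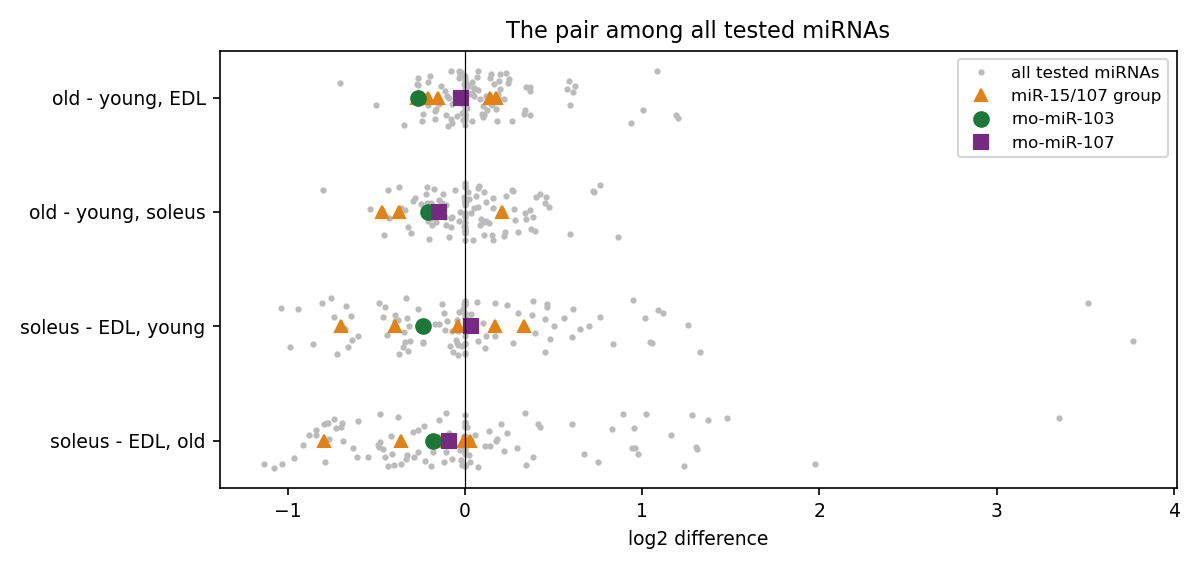
Log2 differences of all 114 tested miRNAs (grey, jittered vertically) with miR-103, miR-107 and the 5 other tested miRNAs of the miR-15 and miR-107 group marked. The pair lies within 0.27 of 0 in every comparison, while the muscle comparisons of all miRNAs reach beyond 3.

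The members were next set against each other on the same array, as log2 miR-103 minus log2 miR-107, from which any scaling of the array cancels. The size of this value depends on the probes, so only its change between groups is read. It was -0.69, -0.71, -0.55 and -0.44 in old soleus 1 to 4, and -0.64, -0.46, -0.54 and -0.52 in young soleus 7 to 10. It was -0.47, -0.63, -0.44 and -0.50 in old EDL 1 to 4, and -0.28, -0.28, -0.17 and -0.33 in young EDL 7 to 10. Young EDL stood above every array of the other 3 groups, which overlapped one another. The means were -0.60 ± 0.13 in old soleus, -0.54 ± 0.07 in young soleus, -0.51 ± 0.08 in old EDL and -0.26 ± 0.07 in young EDL (SD, n = 4 each).

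The change was -0.28 for soleus minus EDL in young rats, with no overlap. Its two-sided exact permutation p was 0.0286, the smallest that 4 against 4 arrays can give, and 0.0857 after Benjamini-Hochberg adjustment over the 3 comparisons tested, so it did not pass. The young EDL arrays are those of the age contrast known when the pair was chosen, so this p is not independent of that choice. For soleus minus EDL in old rats the change was -0.09 (exact permutation p = 0.257, adjusted 0.386). The old EDL arrays are also part of the age contrast known when the pair was chosen. For old minus young soleus it was -0.06 (exact permutation p = 0.486, adjusted 0.486). For old minus young EDL it was -0.25, without overlap and, as above, without a test.

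The dimmer probe of each member, a choice made after seeing the data, passed the background flag on all 8 EDL arrays, and the change in old minus young EDL was -0.29. On soleus arrays these probes were not well above background throughout, as given above. The changes that involve soleus, -0.32 for soleus minus EDL in young rats, -0.23 in old rats and -0.19 for old minus young soleus, are therefore given with no test.

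**Figure D4:**
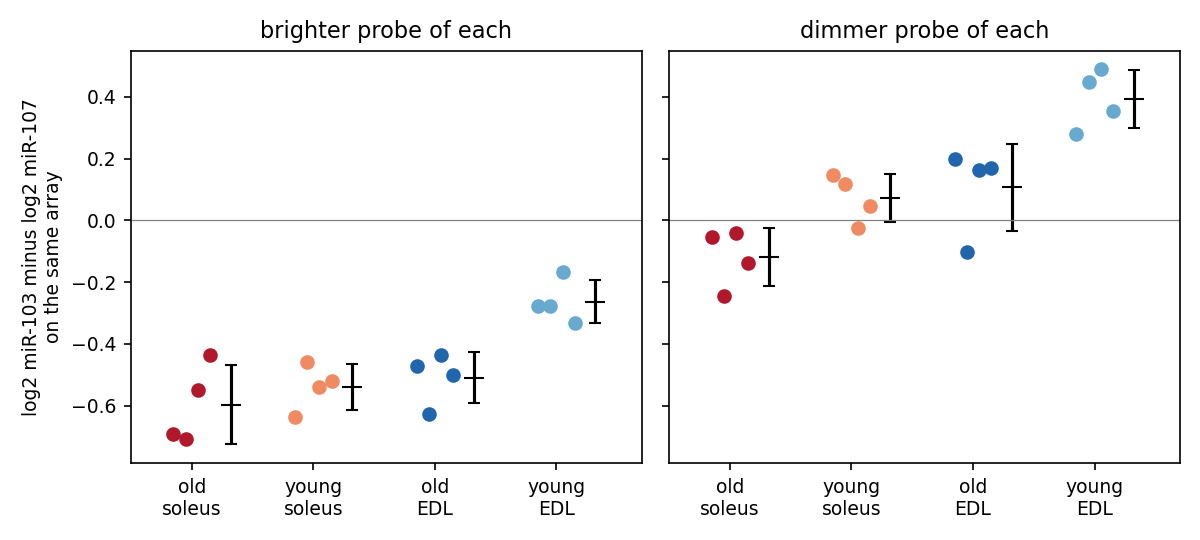
Log2 miR-103 minus log2 miR-107 on the same array, from the brighter (left) and the dimmer (right) probe of each, 1 point per array, with the group mean and SD (n = 4) in black. Young EDL lies above the other groups in both panels, from -0.33 to -0.17 on the left and from 0.28 to 0.49 on the right, where not every soleus value is well above background.

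Before scaling, the signals of the members followed each other closely over the 16 arrays (Pearson r = 0.990, given as a description, since both carry the array's brightness). In relative signal r was 0.57 over the 16 arrays, 0.82 over the 8 soleus arrays and 0.40 over the 8 EDL arrays. Among the other 53 miRNAs well above background on every array, miR-107 ranked 12 in likeness to miR-103. The patterns most like miR-103 over the 16 arrays were those of miR-16 (r = 0.85), miR-30c (0.83), miR-30a (0.79), miR-125b-5p (0.77) and the muscle miRNA miR-1 (0.71). With group means removed these were 0.74, 0.52, 0.55, 0.60 and 0.53, and 0.55 for miR-107. The patterns most like miR-107 were those of the muscle miRNA miR-133b (r = 0.81), miR-30e (0.74), miR-195 (0.73), miR-30c (0.70) and the brain-rich miR-128 (0.66). The arrays share slides and scaling within groups, so these correlations are descriptions and have no p.

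Of the rest of the miR-15 and miR-107 group (8 listed, 6 on the array), 5 miRNAs were tested. None of the 5 was called in old minus young soleus, beside 3.51% of all tested miRNAs. In each muscle comparison 1 of the 5 was called, beside 53.5% of all tested in old and 43% in young rats. It was miR-16, a brake on the cell cycle, which was lower in soleus. Its difference was -0.80 in old rats (SE 0.11, limma adjusted p = 5.5e-05) and -0.70 in young rats (SE 0.11, limma adjusted p = 0.000213). The log2 means of miR-16 were -1.69 in old soleus, -1.32 in young soleus, -0.89 in old EDL and -0.62 in young EDL. In old minus young soleus, miR-195 differed by -0.47 (limma adjusted p = 0.0647) and miR-16 by -0.37 (limma adjusted p = 0.0636). miR-195 and miR-497 lie beside each other on chromosome 10, and the miR-497 difference in old minus young soleus was -0.18 (limma adjusted p = 0.430). The group median was -0.18 in old minus young soleus, -0.15 for soleus minus EDL in old rats and -0.04 in young rats, beside medians over all tested miRNAs of 0.00, -0.05 and 0.00.

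Of 16 other miRNAs linked to insulin or metabolism, all on the array, 13 were tested. In old minus young soleus 1 of them was higher, miR-29b, a repressor of collagen genes, at 0.76 (limma adjusted p = 0.0384), and none was lower. Of all tested miRNAs, 3.51% were called in that comparison in either direction. For soleus minus EDL in old rats, 2 were higher and 6 lower, near the 53.5% called among all tested miRNAs. Those higher were miR-223 (0.96), a myeloid miRNA, and let-7b (0.22). Those lower were miR-143 (-0.74), miR-29c (-0.69), let-7i (-0.46), miR-29a (-0.45), miR-378 (-0.41), which is hosted by the PGC-1β gene, and let-7f (-0.27). For soleus minus EDL in young rats, miR-223 (0.95) and let-7d (0.27) were higher and miR-378 (-0.64), let-7i (-0.38) and miR-143 (-0.37) lower, near the 43% called among all tested miRNAs. The list's medians were 0.07, -0.11 and -0.01 in these 3 comparisons, beside 0.00, -0.05 and 0.00 over all tested miRNAs. miR-143 is also in the smooth muscle list and miR-223 in the leukocyte list.

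The direction of the muscle differences depended on the scaling. Dividing an array by any one number moves both members alike, so such settings carry no information on the gap between them. Without any scaling, miR-103 differed by -0.0016 and miR-107 by 0.24 in old minus young EDL, with the median of all tested miRNAs at 0.25.

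**Figure D5:**
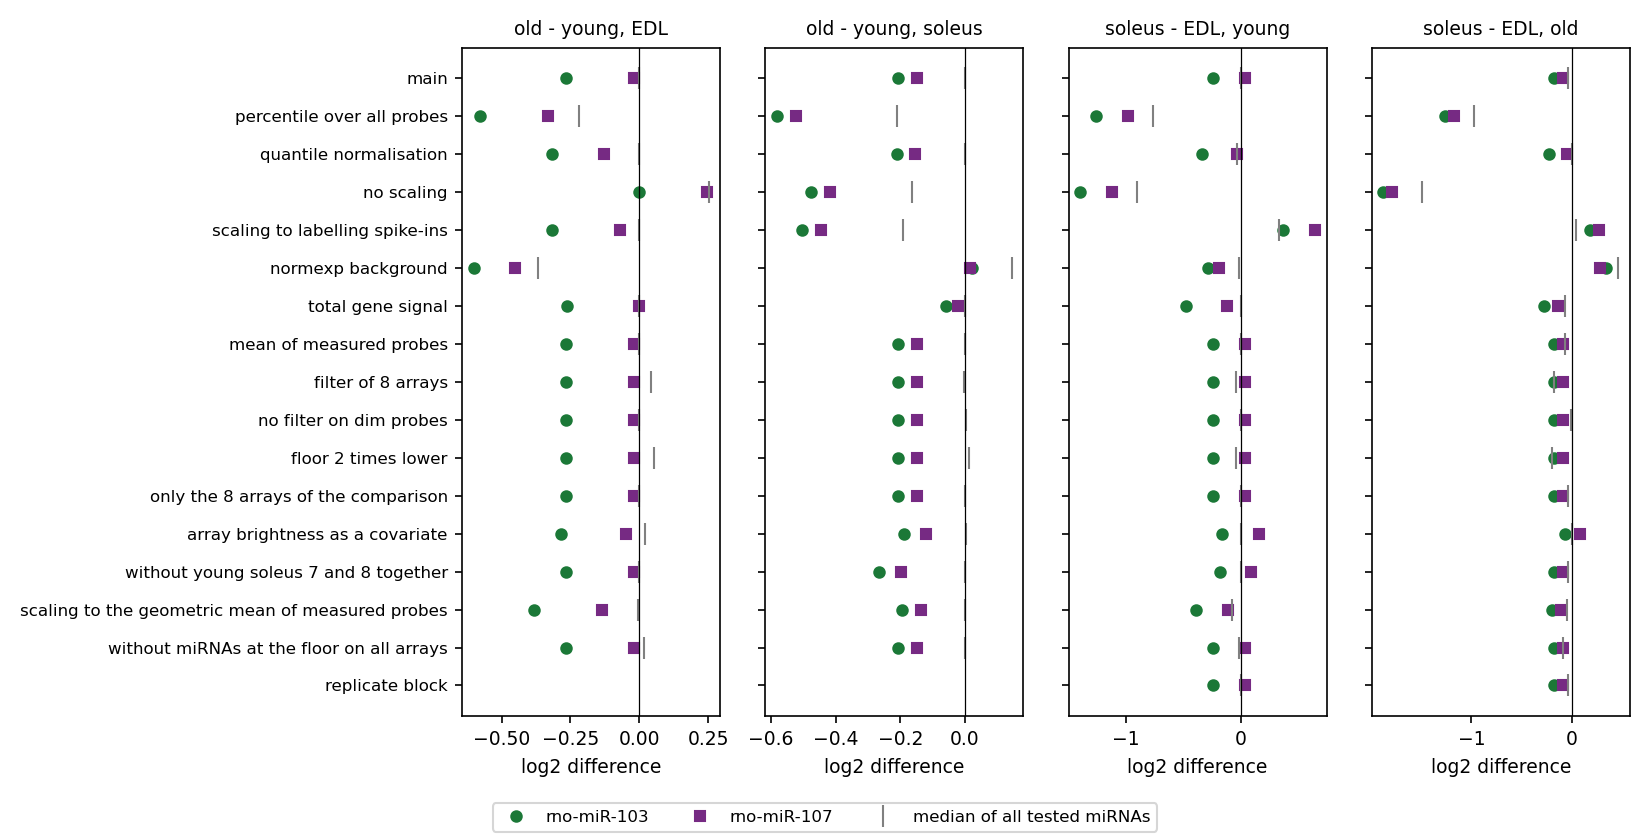
Log2 differences of miR-103 (green) and miR-107 (purple) under each processing setting, 1 row per setting and 1 panel per comparison, each with its own axis range, with the median of all tested miRNAs as a grey tick. With scaling to labelling spike-ins the young muscle difference is 0.37 for miR-103 and 0.64 for miR-107, against -0.24 and 0.04 as reported.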

How the data were processed

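Per the labels' protocols, total RNA of each muscle was labelled with Cy3 and hybridised to Agilent rat miRNA arrays. The authors deposited spot intensity values from Agilent Feature Extraction, version 10.7.3.1 per the file headers and 10.7 per the submitters' processing notes. The processed signal has Feature Extraction's background treatment, and no scaling between arrays is recorded. The deposited table of the whole series repeats these values in 100% of its cells. The members and lists were chosen with earlier results of these data known.

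Control spots and flagged spots (3.03%) were left out, and spots of a probe averaged. Signals were scaled by an array's own 75th percentile over the 95 probes well above background on all 16 arrays, floored at 0.0339 (log2 -4.88) and converted to log2; no member reached the floor. The brightest probe stood for a miRNA. Of the 114 tested miRNAs, 11 were at the floor on all arrays and had a difference of 0 in every comparison. They count in the shares and medians given over all tested miRNAs. Without them the median for soleus minus EDL in old rats was -0.09. All 4 groups entered 1 limma model (limma 3.58.1, R 4.3.3), two-sided, with Benjamini-Hochberg adjustment at 0.05. The number of arrays limits the precision. Scripts were tested on simulated data. The alternatives covered scaling, background, signal column, probe rule, filter, floor, covariate, block and left-out arrays. The miRNAs named are the members, the 5 most like each, and those of the miR-15 and miR-107 group, insulin and marker lists. Python 3.11.15, numpy 2.4.6, pandas 2.3.3, matplotlib 3.10.9, jsonlite 2.0.0 and data.table (version 1.17.8) were also used.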

Additional observations from a re-analysis of the deposited data

How the results depend on the processing

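Values are log2 differences, and limma adjusted p-values were compared with 0.05; the cause of a change was not tested. With the percentile over all probes, old minus young EDL was -0.58 for miR-103 and -0.33 for miR-107, the age effect difference of miR-103 -0.0046, and soleus minus EDL -1.26 for miR-103 and -1.17 for miR-107 (now passing) in old and -1.26 and -0.98 in young rats. With no scaling, old minus young EDL was -0.0016 and 0.24, the age effect difference -0.48 and -0.66 (miR-103, then miR-107, here and below), and soleus minus EDL -1.87 and -1.78 in old and -1.40 and -1.12 in young rats (all passing). In old minus young soleus the percentile over all probes gave -0.58 and -0.52 and no scaling -0.48 and -0.42, none passing. With spike-in scaling, old minus young soleus was -0.51 and -0.45 (both now passing), soleus minus EDL 0.18 and 0.26 in old and 0.37 and 0.64 in young rats (all but the first passing), and the age effect difference -0.19 and -0.38. With normexp, under which no member passed, old minus young EDL was -0.60 and -0.45, old minus young soleus 0.0202 and 0.0156, soleus minus EDL 0.33 and 0.28 in old and -0.29 and -0.19 in young rats, and the age effect difference 0.62 and 0.47. With quantile normalisation miR-107 was -0.031 for young muscle and -0.0239 for the age effect difference. With the total gene signal, old minus young soleus was -0.06 and -0.02, miR-103 -0.28 for old muscle (not passing) and -0.48 for young muscle (passing), miR-107 -0.12 for young muscle, and the age effect difference 0.20 and -0.0198. With scaling to the geometric mean, added after seeing the data, old minus young EDL was -0.38 and -0.13, young muscle of miR-107 -0.11, and the age effect difference 0.19 and -0.0027. With array brightness as a covariate, miR-103 was -0.0696 in old and -0.16 in young muscle (neither passing) and miR-107 0.0802 in old muscle. The old muscle value of miR-103 stayed -0.18 and no longer passed with the filter of 8 arrays, no filter, the lower floor, only the 8 arrays compared (where miR-107 passed at -0.0924), or without miRNAs at the floor (added after seeing the data). Without young soleus 7 and 8, miR-103 was -0.27 in old minus young soleus (now passing) and -0.18 in young muscle (not passing).

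Leaving out 1 array at a time gave, for miR-103, -0.30 to -0.24 in old minus young EDL, -0.28 to -0.17 in old minus young soleus, -0.25 to -0.14 in old and -0.27 to -0.18 in young muscle, and -0.0081 to 0.0983 for the age effect difference. For miR-107 it gave -0.0848 to 0.034, -0.17 to -0.13, -0.11 to -0.07, -0.0283 to 0.0904 and -0.18 to -0.064 in the same order. The sign of miR-103 turned without old soleus 4 (age effect difference), and that of miR-107 without young EDL 8 or 10 (old minus young EDL) and without young EDL 9 (young muscle).

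The change of miR-103 against miR-107 within an array was, with normexp, -0.15 for old minus young EDL, 0.0046 for old minus young soleus, 0.0575 for old and -0.0942 for young muscle. For old minus young soleus it was -0.13 with the mean of all probes and -0.19 with the dimmer probes; both use probes not well above background on every soleus array, so no p is read from them. For young muscle it was -0.27 without young soleus 7 and 8, where the exact test has too few arrays to pass.

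The count of miRNAs called in old minus young soleus, 4, was 1 to 26 with 1 array left out and 0 to 39 under the other settings; in the muscle comparisons it was 8 to 87 in old and 5 to 66 in young rats, from 61 and 49. Deviations of same-numbered soleus and EDL arrays correlated positively in old rats (r from 0.09 to 0.50, own number best in 2 of 4) and in both directions in young rats (-0.56 to 0.58, own number best in 0 of 4). As not every pair exceeded 0.1, the samples were treated as unpaired, and whether a number marks 1 rat is unknown. With the number as a replicate block, miR-103 kept its calls (limma adjusted p = 0.0366 in old and 0.0158 in young muscle), miR-107 stayed uncalled (0.198 and 0.694), and the within-array change of -0.28 in young muscle had an exact permutation p of 0.125, the smallest that 4 pairs can give. The signal of the dimmer probes over background limits what can be said in soleus.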
